A study of Homo sapiens with 6 samples.

Results

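Aldo-keto reductases and aldehyde dehydrogenases are enzymes that handle reactive carbonyl compounds. The 10 genes described here are 6 aldo-keto reductases, AKR1B1, AKR1B10, AKR1C1, AKR1C2, AKR1C3 and AKR1A1, and 4 aldehyde dehydrogenases, ALDH1A1, ALDH2, ALDH3A1 and ALDH3A2. They were taken by symbol from the 54261 gene rows of the deposited count table. All 10 were found, and all 10 were among the 15614 genes that passed the filter on low counts and were tested. The cells were A549, an established human lung adenocarcinoma line, grown in medium with 10% fetal bovine serum. In 3 libraries, called si-SNHG17, the cells had been given an siRNA that lowers SNHG17, a long noncoding RNA of a small nucleolar RNA host gene. In the other 3, called si-NC, they had been given a control siRNA. Total RNA was sequenced, and the question was which transcripts differ when SNHG17 is lowered. Both groups are the same cancer line, so the data hold 1 genetic background, and the sources used here do not give the siRNA sequence, dose or time to harvest.

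Aldo-keto reductases use NADPH to reduce aldehydes and ketones to alcohols, and aldehyde dehydrogenases oxidise aldehydes to carboxylic acids with NAD or NADP. Several of these genes, among them AKR1B10, the AKR1C genes and ALDH3A1, are known targets of the transcription factor NRF2, which KEAP1 normally marks for degradation. A549 cells carry an inactivating KEAP1 mutation and are known for high levels of these enzymes.

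Some members of the AKR1C and AKR1B subfamilies are close copies of each other, and the sources used here do not say how reads shared between them were counted. The stretches below show how much sequence separates the copies. Each is 150 bases of the coding sequence, 5′ to 3′, from GENCODE release 29 (GRCh38), with positions counted from 1 at the first base of the start codon. Capitals mark bases that differ from the first sequence of the set. The AKR1C set covers coding positions 484 to 633 of the 3 genes on chromosome 10, in which AKR1C1 differed from AKR1C2 at 2 bases and AKR1C3 differed from AKR1C2 at 14.
AKR1C2: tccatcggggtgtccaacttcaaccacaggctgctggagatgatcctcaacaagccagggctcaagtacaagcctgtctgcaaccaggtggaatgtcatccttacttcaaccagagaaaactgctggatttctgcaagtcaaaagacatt
AKR1C1: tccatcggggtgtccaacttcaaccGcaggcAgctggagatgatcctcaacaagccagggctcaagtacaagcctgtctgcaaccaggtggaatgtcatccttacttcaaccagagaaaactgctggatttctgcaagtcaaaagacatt
AKR1C3: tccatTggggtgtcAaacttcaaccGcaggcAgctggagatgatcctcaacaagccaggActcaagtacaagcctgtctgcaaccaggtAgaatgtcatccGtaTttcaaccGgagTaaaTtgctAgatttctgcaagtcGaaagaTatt
The AKR1B set, on chromosome 7, covers coding positions 475 to 624 of AKR1B10 and AKR1B1 and positions 559 to 708 of AKR1B15, a close copy of AKR1B10. AKR1B15 differed from AKR1B10 at 4 bases here and AKR1B1 at 33.
AKR1B10: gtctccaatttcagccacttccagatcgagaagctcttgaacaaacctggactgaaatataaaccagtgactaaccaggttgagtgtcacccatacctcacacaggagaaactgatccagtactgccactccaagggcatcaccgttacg
AKR1B15: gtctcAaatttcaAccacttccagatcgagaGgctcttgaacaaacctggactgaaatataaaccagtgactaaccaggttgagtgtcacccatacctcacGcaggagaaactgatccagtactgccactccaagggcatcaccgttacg
AKR1B1: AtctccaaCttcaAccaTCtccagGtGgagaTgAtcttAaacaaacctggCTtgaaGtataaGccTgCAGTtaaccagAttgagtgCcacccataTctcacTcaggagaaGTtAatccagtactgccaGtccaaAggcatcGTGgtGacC
Over the whole coding sequence, AKR1C1 and AKR1C2 were 98.0% identical, with 19 of 969 aligned bases different, and 18.9% of their 100-base windows were identical. AKR1C3 was 91.0% identical to AKR1C2, and 8.28% of the windows were identical. AKR1B10 was 92.0% identical to AKR1B15 and shared 2.00% of the windows. AKR1B10 was 76.7% identical to AKR1B1, with no shared 100-base window and a longest identical run of 22 bases. The values of AKR1C1, AKR1C2 and AKR1C3 are therefore uncertain as to which gene a read came from, whereas AKR1B10 and AKR1B1 share no such window in their coding sequence. Exon sequence outside the coding part was not compared. Merged exons span 8765 bases for AKR1C1, 6461 for AKR1C2 and 4532 for AKR1C3, so how far reads are shared over the whole genes is not known. ALDH3A1 and ALDH3A2 were 66.7% identical, and ALDH1A1 and ALDH2 were 65.6% identical.

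The genes lie on 6 chromosomes, with positions from the RefSeq annotation of GRCh38.p14. On chromosome 7, AKR1B1 runs from 134442350 to 134459239 on the minus strand, AKR1B10 from 134527567 to 134541412 on the plus strand and AKR1B15 from 134549110 to 134579869 on the plus strand. AKR1B1 and AKR1B10 are 68.3 kb apart with 0 protein-coding genes between them. On chromosome 10, AKR1C1 runs from 4963415 to 4983283 (plus), AKR1C2 from 4987775 to 5018000 (minus) and AKR1C3 from 5048781 to 5107686 (plus). ALDH3A2, from 19648136 to 19677596 (plus), and ALDH3A1, from 19737984 to 19748298 (minus), are 60.4 kb apart on chromosome 17, with 1 protein-coding gene between them. AKR1A1 lies on chromosome 1 from 45550826 to 45570049 (plus). ALDH1A1 lies on chromosome 9 from 72900671 to 72953053 (minus). ALDH2 lies on chromosome 12 from 111766933 to 111817532 (plus).

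The libraries held 8643076 to 12477214 counts. SNHG17 had 7.80, 8.37 and 11.2 CPM (counts scaled to a library size of 1000000 after TMM adjustment) in si-SNHG17 and 38.6, 36.1 and 51.3 CPM in si-NC, which left 21.8% of the si-NC mean. The difference was -2.21 ± 0.167 on the log2 scale (SE, adjusted p = 2.84e-07). An exact two-sided permutation test of its log2 CPM gave p = 0.1, the smallest that 3 libraries against 3 allow. The share of mitochondrially encoded transcripts was 4.33% ± 0.187 for si-SNHG17 libraries and 7.79% ± 0.470 for si-NC libraries (SD over 3 libraries each). Within si-NC, replicate 3 stood apart from replicates 1 and 2, with chi-square values per degree of freedom of 8.85 and 8.40 against 2.25 between replicates 1 and 2. The 6 epithelial markers summed to 9701 to 10321 CPM in si-SNHG17 and 12089 to 14149 CPM in si-NC, nearly all from KRT7, KRT8 and KRT18. They did not move together. KRT8 (log2 fold change -0.75), KRT18 (-0.93) and CDH1 (-0.53) fell. KRT19 (0.43) and KRT7 (0.27, with overlapping groups) rose. EPCAM was near absent, at 0.948 CPM in si-SNHG17 and 1.53 CPM in si-NC. Immune markers summed to 2.70 to 3.19 CPM in si-SNHG17 and 0.795 to 2.90 CPM in si-NC, with PTPRC, CD3E, MS4A1 and NKG7 at 0. Liver markers summed to 2.84 to 4.70 CPM in si-SNHG17 and 3.84 to 5.32 CPM in si-NC, with ALB at 0. Stromal and endothelial markers summed to 23.6 to 31.1 CPM in si-SNHG17 and 22.5 to 29.1 CPM in si-NC, nearly all COL1A1, with COL1A2 and COL3A1 at 0.

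Of the 10 genes, 7 fell in si-SNHG17, 1 rose and 2 did not pass the threshold of 0.05 on the adjusted p (edgeR's quasi-likelihood test with Benjamini-Hochberg adjustment over all genes tested). The 3 falls beyond 2-fold were ALDH3A1, ALDH1A1 and AKR1B10, and the rise was AKR1B1. Over all genes tested, 39.2% passed the threshold, 19.6% higher and 19.6% lower, and 4.92% were lower by 2-fold or more. The 10 genes are far more abundant than most, with mean CPM of 102.6 to 3972 against a median of 17.5 over all genes tested. Among the 1969 tested genes at least as abundant as the lowest of the 10, 55.4% passed the threshold. The median log2 fold change was -0.42 over the 10 genes and 0.01 over all genes tested. The groups did not overlap for 9 of the 10 genes, against 49.4% of all genes tested, a share not matched for abundance. The 10 genes and the gene lists below were chosen with earlier results of these data known, so such shares only describe them. In bulk RNA, fewer cells with a transcript and less of it per cell cannot be told apart.

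**Figure D1:**
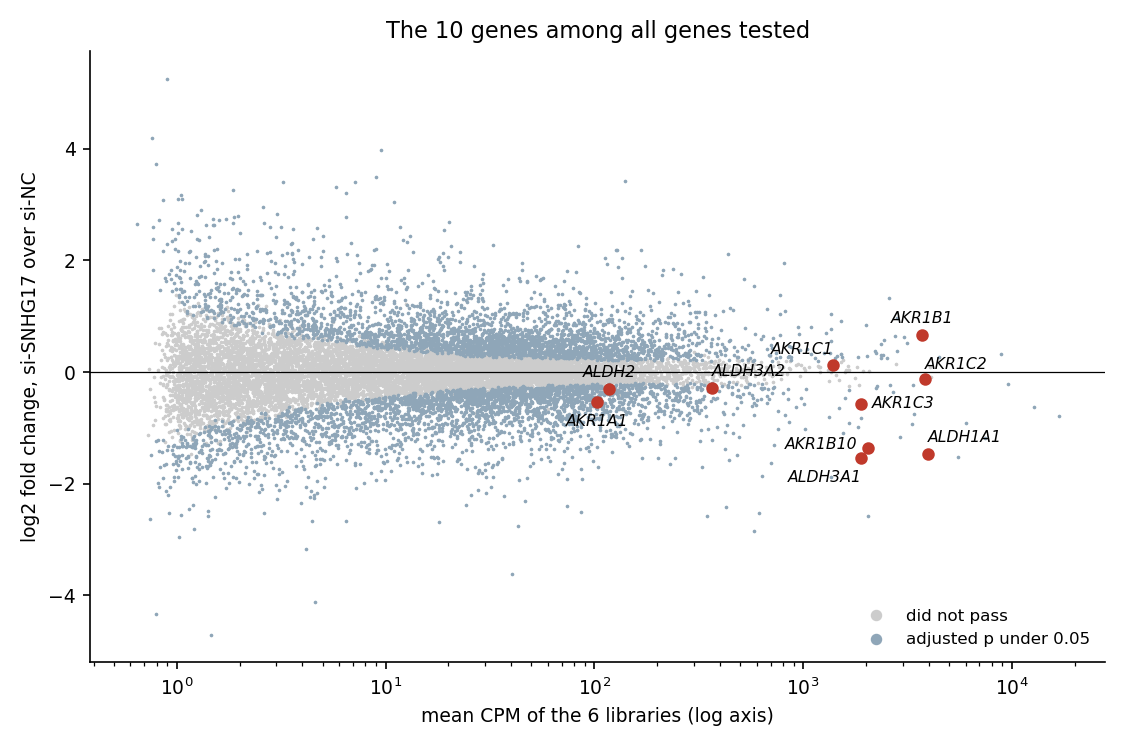
Log2 fold change of si-SNHG17 over si-NC (vertical) against mean CPM of the 6 libraries on a log axis (horizontal) for the 15614 genes tested, with blue points for adjusted p under 0.05 and red points for the 10 genes. The 10 lie at the abundant end, with ALDH3A1 (-1.54), ALDH1A1 (-1.47) and AKR1B10 (-1.35) lowest among them and AKR1B1 (0.66) highest.

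AKR1B10 and AKR1B1, neighbours on chromosome 7, moved in opposite directions. AKR1B10, a reductase of retinal and lipid aldehydes that is often raised in lung cancer, had 1176, 1083 and 1192 CPM in si-SNHG17 and 2811, 3044 and 2955 CPM in si-NC. Every si-SNHG17 library was below every si-NC library, and the spread within each group was small beside the gap. The means were 1150.4 ± 58.8 CPM in si-SNHG17 and 2937 ± 117 CPM in si-NC (SD, n = 3 each), or 39.2% of the si-NC level. AKR1B10 fell by 1.35 on the log2 scale (SE 0.0735, 95% interval -1.51 to -1.19, adjusted p = 1.53e-08). AKR1B1, aldose reductase, which turns glucose into sorbitol in the polyol pathway, had 4667, 4246 and 4710.2 CPM in si-SNHG17 and 2654, 2609.8 and 3333 CPM in si-NC. The groups did not overlap, and si-NC replicate 3 was the highest of its group. AKR1B1 averaged 4541 ± 257 CPM in si-SNHG17 and 2866 ± 406 CPM in si-NC, or 158% of the si-NC level. It rose by 0.66 on the log2 scale (SE 0.0943, 95% interval 0.46 to 0.87, adjusted p = 8.11e-05).

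The ratio of AKR1B10 to AKR1B1 within a library does not depend on library size. It was 0.252, 0.255 and 0.253 in si-SNHG17 and 1.06, 1.17 and 0.886 in si-NC. The 3 si-SNHG17 values were nearly the same, and all lay far below the si-NC values. On the log2 scale the ratio was -1.98 ± 0.00894 in si-SNHG17 and 0.04 ± 0.201 in si-NC (mean ± SD of 3 libraries), a difference of -2.02. AKR1B1 made up 79.8% ± 0.10 of the counts of the pair in si-SNHG17 and 49.2% ± 3.48 in si-NC. The exact two-sided permutation test gave p = 0.1, the smallest that 3 libraries against 3 allow, and 0.12 after adjustment over the 6 ratios compared.

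Rows of close copies were read beside both genes. AKR1B15, the neighbouring copy of AKR1B10, averaged 68.2 CPM in si-SNHG17 and 118 CPM in si-NC and fell by 0.80 on the log2 scale (adjusted p = 3.31e-06). AKR1B10P1, a pseudogene row at 95.2% identity to the AKR1B10 coding sequence and named after its values were seen, had 89.6, 56.7 and 89.2 CPM in si-SNHG17 and 206, 164 and 158 CPM in si-NC (log2 fold change -1.17, adjusted p = 3.62e-05). Counts of AKR1B10, AKR1B15 and AKR1B10P1 summed to 1 row gave -1.32, beside -1.35 for AKR1B10 alone. Pseudogene rows of AKR1B1, also named after their values were seen, had log2 fold changes of 0.64 for AKR1B1P7, 0.57 for AKR1B1P2 and 0.53 for AKR1B1P3, which passed the threshold, and 0.31 for AKR1B1P1, which did not (adjusted p = 0.137). AKR1B1 summed with its 8 pseudogene rows rose by 0.66, as alone. Whether the pseudogene rows hold reads of the parent genes was not tested.

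The AKR1C genes encode hydroxysteroid dehydrogenases that inactivate or interconvert steroids and also reduce lipid aldehydes, and of these 3 only AKR1C3 passed the threshold. AKR1C3, which makes testosterone from androstenedione and prostaglandin F from prostaglandins D and H, had 1517, 1535 and 1541 CPM in si-SNHG17 and 2171, 2260.2 and 2382 CPM in si-NC. The groups lay well apart, with almost no spread in si-SNHG17. AKR1C3 averaged 1531 ± 12.1 CPM in si-SNHG17 and 2271 ± 106 CPM in si-NC, or 67.4% of the si-NC level, and fell by 0.57 on the log2 scale (SE 0.0695, 95% interval -0.72 to -0.42, adjusted p = 2.15e-05). AKR1C2, which inactivates dihydrotestosterone, had 3716, 3518 and 3804 CPM in si-SNHG17 and 3849, 4154 and 3995 CPM in si-NC. The si-SNHG17 libraries were all below the si-NC libraries, yet the nearest libraries of the groups were close together. Its log2 fold change was -0.12 (SE 0.0703, 95% interval -0.27 to 0.03, adjusted p = 0.194). AKR1C1, which inactivates progesterone, had 1602, 1295 and 1467 CPM in si-SNHG17 and 1134, 1155 and 1713 CPM in si-NC. The groups overlapped, because si-NC replicate 3 exceeded every other library. Its log2 fold change was 0.12 (SE 0.134, 95% interval -0.16 to 0.41, adjusted p = 0.496). Without si-NC replicate 3, AKR1C1 was higher in si-SNHG17 by 0.34 and passed the threshold (adjusted p = 0.00161), so its result rests on that library. Over all its alternatives the adjusted p ran from 0.00161 to 0.931.

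Summed to 1 row, AKR1C1, AKR1C2 and AKR1C3 averaged 6664 ± 276 CPM in si-SNHG17 and 7604 ± 469 CPM in si-NC (SD, n = 3 each). The sum does not depend on which of the 3 rows a read counted once was given to. It would still lack shared reads that were dropped, or repeat those counted for more than 1 gene, and which was done is not given. The summed row had a log2 fold change of -0.19 (SE 0.0738, 95% interval -0.35 to -0.03) and did not pass the threshold (adjusted p = 0.0549); with limma-voom it did (adjusted p = 0.0269, against 0.0510 to 0.165 in the other alternatives). Within the sum, AKR1C3 held 22.2%, 24.2% and 22.6% in si-SNHG17 and 30.3%, 29.9% and 29.4% in si-NC. AKR1C1 held 23.4%, 20.4% and 21.5% in si-SNHG17 and 15.9%, 15.3% and 21.2% in si-NC. The AKR1C3 shares did not overlap between the groups, whereas those of AKR1C1 did, since si-NC replicate 3 lay within the si-SNHG17 range. The log2 ratio of AKR1C3 to AKR1C2 was -1.26 in si-SNHG17 and -0.82 in si-NC, a difference of -0.45 (exact two-sided permutation test, p = 0.1, adjusted 0.12). The log2 ratio of AKR1C1 to AKR1C2 was -1.34 ± 0.117 in si-SNHG17 and -1.61 ± 0.339 in si-NC, and its difference of 0.27 was within the spread (exact permutation p = 0.3). That difference was 0.46 without si-NC replicate 3 (exact permutation p = 0.2, the smallest that 3 libraries against 2 allow) and 0.15 without si-NC replicate 2 (p = 0.6 by the same exact test). AKR1C4, the liver member of the cluster, was low at 9.12 CPM in si-SNHG17 and 9.06 CPM in si-NC (log2 fold change 0.03, adjusted p = 0.927).

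AKR1A1, the broadly expressed aldehyde reductase that also serves ascorbate synthesis in mice, had 80.9, 91.0 and 80.0 CPM in si-SNHG17 and 120.2, 118 and 126 CPM in si-NC. All 3 si-SNHG17 libraries were below the si-NC libraries. It averaged 84.0 ± 6.10 CPM in si-SNHG17 and 121 ± 4.33 CPM in si-NC, or 69.2% of the si-NC level. AKR1A1 fell by 0.53 on the log2 scale (SE 0.0841, 95% interval -0.71 to -0.35, adjusted p = 0.000213).

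**Figure D2:**
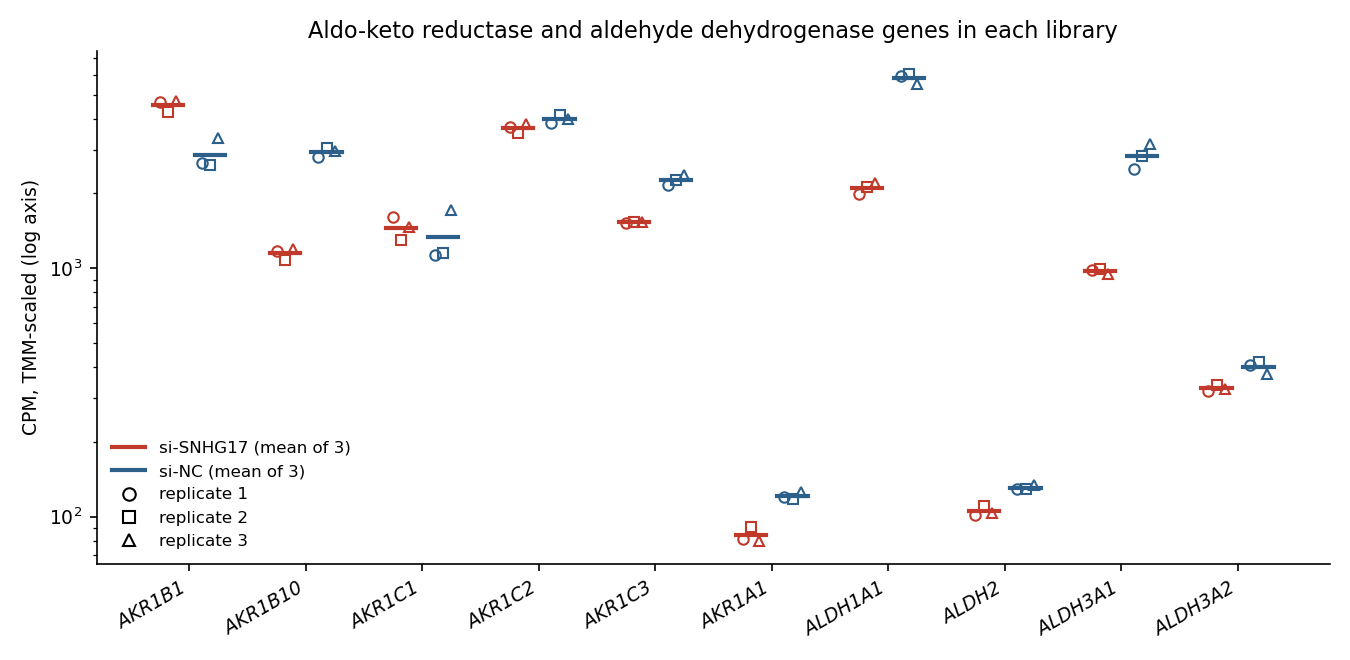
CPM of the 10 genes in each library (vertical, log axis), with si-SNHG17 in red left of si-NC in blue, symbols for the 3 replicates and bars for the group means. The groups overlap for AKR1C1 alone (1295 to 1602 CPM in si-SNHG17, 1134 to 1713 CPM in si-NC), and AKR1B1 is the gene with every si-SNHG17 library above every si-NC library.

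All 4 aldehyde dehydrogenases fell, by very different amounts. ALDH1A1, the cytosolic retinal dehydrogenase that makes retinoic acid and is used as a marker of stem-like cancer cells, had 1997, 2115 and 2201 CPM in si-SNHG17 and 5934, 6049 and 5537 CPM in si-NC. The highest si-SNHG17 library was well below the lowest si-NC library. ALDH1A1 averaged 2104 ± 103 CPM in si-SNHG17 and 5839.8 ± 269 CPM in si-NC, or 36.0% of the si-NC level, and fell by 1.47 on the log2 scale (SE 0.0739, 95% interval -1.63 to -1.31, adjusted p = 7.37e-09). ALDH3A1, which oxidises aromatic and medium-chain aldehydes and is abundant in cornea, had 983, 992 and 948 CPM in si-SNHG17 and 2503, 2837 and 3158 CPM in si-NC. Its si-SNHG17 libraries lay close together, while the si-NC libraries were spread more widely and lay far above. ALDH3A1 averaged 974 ± 23.2 CPM in si-SNHG17 and 2833 ± 327 CPM in si-NC, or 34.4% of the si-NC level, and fell by 1.54 (SE 0.0866, 95% interval -1.73 to -1.35, adjusted p = 2.05e-08).

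ALDH3A2 and ALDH2 fell less. ALDH3A2, the fatty aldehyde dehydrogenase that is deficient in Sjögren-Larsson syndrome, had 319.7, 339 and 327 CPM in si-SNHG17 and 406, 419 and 375 CPM in si-NC. The groups did not overlap, though the gap between the nearest libraries was small. ALDH3A2 averaged 329 ± 9.64 CPM in si-SNHG17 and 400.1 ± 22.7 CPM in si-NC, or 82.1% of the si-NC level, and fell by 0.28 on the log2 scale (SE 0.0739, 95% interval -0.44 to -0.13, adjusted p = 0.00756). ALDH2, the mitochondrial enzyme that clears acetaldehyde from ethanol, had 102, 111 and 104 CPM in si-SNHG17 and 129, 129.5 and 134 CPM in si-NC. Again no si-SNHG17 library reached a si-NC library. ALDH2 averaged 106 ± 4.69 CPM in si-SNHG17 and 131 ± 2.89 CPM in si-NC, or 80.6% of the si-NC level, and fell by 0.31 (SE 0.0773, 95% interval -0.48 to -0.14, adjusted p = 0.00577).

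Ratios of counts within a library, which are not levels per length, were also compared between relatives. ALDH3A1 had 3.07, 2.93 and 2.90 times the counts of ALDH3A2, its neighbour on chromosome 17, in si-SNHG17 and 6.16, 6.77 and 8.42 times in si-NC. On the log2 scale this ratio was 1.57 in si-SNHG17 and 2.82 in si-NC, a difference of -1.25. ALDH1A1 had 19.6, 19.1 and 21.2 times the counts of ALDH2 in si-SNHG17 and 46.0, 46.7 and 41.2 times in si-NC, a log2 difference of -1.16. The log2 ratio of AKR1B10 to AKR1A1 was 3.78 in si-SNHG17 and 4.60 in si-NC, a difference of -0.82. None of these 3 ratios overlapped between the groups (exact two-sided permutation test, p = 0.1 each, adjusted 0.12).

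**Figure D3:**
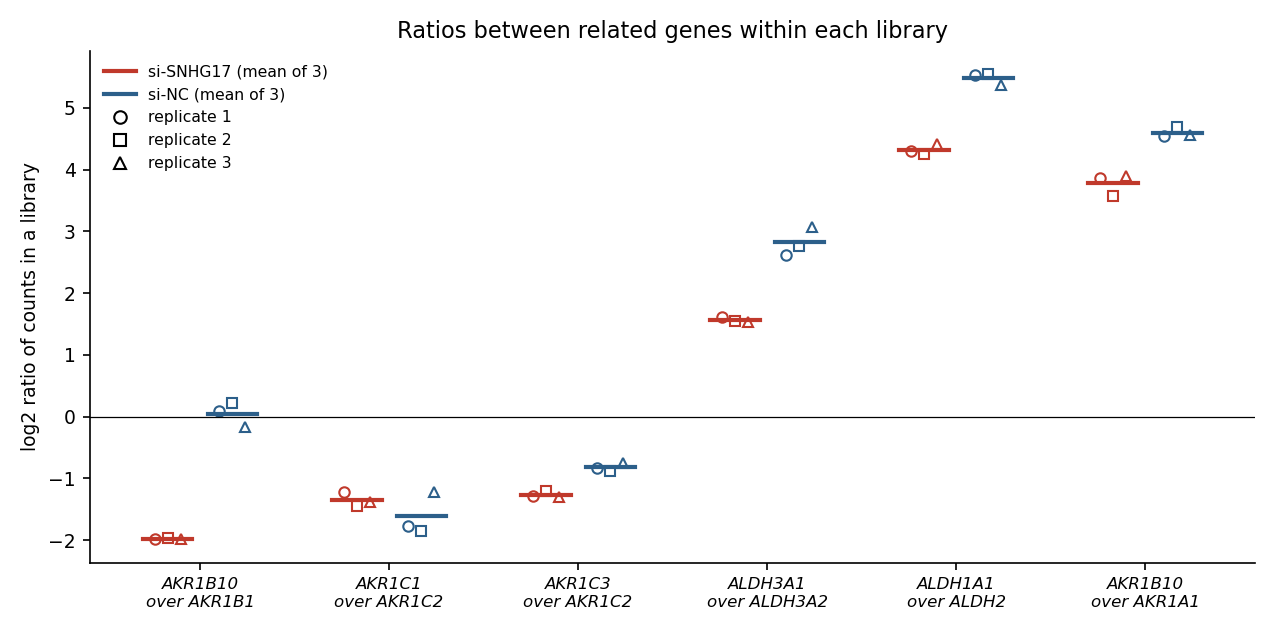
Log2 ratio of counts between 2 related genes in each library (vertical) for 6 pairs, with si-SNHG17 in red left of si-NC in blue, symbols for replicates and bars for the group means. The AKR1B10 over AKR1B1 ratio differs most, at -1.98 in si-SNHG17 and 0.04 in si-NC, and the AKR1C1 over AKR1C2 ratio overlaps because of si-NC replicate 3.

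Together the 10 genes took 1.64%, 1.54% and 1.67% of all counts in si-SNHG17 and 2.16%, 2.26% and 2.31% in si-NC. ALDH1A1, ALDH3A1 and AKR1B10 held 25.7%, 27.3% and 26.5% of the counts of the 10 genes in si-SNHG17 and 51.8%, 52.4% and 49.1% in si-NC. The groups were thus far apart in both measures. The mitochondrially encoded share given above also differed between the groups, and its part in these shares was not tested.

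Per kilobase of merged exon length (GENCODE release 29), the order of levels differed between the groups. In si-SNHG17, AKR1B1 was highest at 1241 ± 70.1 CPM per kb, followed by ALDH1A1 at 739 ± 36.0, AKR1B10 at 659.6 ± 33.7 and AKR1C2 at 569 ± 22.7 (SD, n = 3 each). In si-NC, ALDH1A1 was highest at 2049.8 ± 94.3 CPM per kb, followed by AKR1B10 at 1684 ± 67.4, AKR1B1 at 783 ± 111 and ALDH3A1 at 723 ± 83.5. The ranges of AKR1B1 and ALDH3A1 overlapped in si-NC, so those neighbours in the order were not separated there. ALDH3A2, AKR1A1 and ALDH2 were the lowest of the 10 in both groups, with ALDH2 at 10.9 CPM per kb in si-SNHG17 and 13.5 CPM per kb in si-NC. The exon length decides part of this order: per kilobase of coding sequence, AKR1B1 still came first in si-SNHG17, while AKR1C2 came first in si-NC, ahead of ALDH1A1. The low rank of ALDH3A2, AKR1A1 and ALDH2 was the same with both lengths.

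The genes whose pattern over the 6 libraries was nearest to AKR1B10, by the root mean square difference of centred log2 CPM, were SLC35A4 (0.0633), YWHAB (0.0662), KCTD10 (0.0676), JKAMP (0.0752) and DTYMK (0.0756). Their log2 fold changes were -1.38 to -1.28, beside -1.35 for AKR1B10. With 2 groups of 3 libraries, this distance mostly follows the group difference, so the ranks largely restate the fold changes. Among the 7345 genes with a mean of at least 20 CPM, ALDH1A1 ranked 14 in likeness to AKR1B10, at 0.0976, and ALDH3A1 ranked 50, at 0.134. For ALDH3A1 the nearest were DOK4 (0.0715), MTCO2P12 (0.0973), COX3 (0.0973), VAT1 (0.101) and MEPCE (0.102). Log2 fold changes of these genes were -1.61 to -1.52, beside -1.54 for ALDH3A1. COX3 is mitochondrially encoded, and MTCO2P12 is a nuclear copy of a mitochondrial gene. The mitochondrially encoded share was also lower in si-SNHG17, and its part in the ALDH3A1 result was not tested.

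Other aldo-keto reductases gave a mixed picture. Of 10 listed, 5 were tested, of which 3 fell, 1 rose and 1 did not pass, with a median log2 fold change of -0.35. These counts stand beside the 39.2% of all genes tested that passed. Besides AKR1B15, the falls were AKR7A2, which reduces succinic semialdehyde and aflatoxin dialdehyde (11.3 CPM in si-SNHG17 and 17.4 CPM in si-NC, log2 fold change -0.63, adjusted p = 0.00583), and KCNAB2, a potassium channel subunit with an aldo-keto reductase fold (46.7 CPM in si-SNHG17 and 59.6 CPM in si-NC, -0.35, adjusted p = 0.00770). AKR1E2 rose by 0.30 on the log2 scale (36.0 CPM in si-SNHG17 and 29.3 CPM in si-NC, adjusted p = 0.0280), a call that 7 of 13 alternatives lost, with adjusted p from 0.0148 to 0.0956 over all of them.

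Of 15 other aldehyde dehydrogenases, 11 were tested, of which 5 fell, 1 rose and 5 did not pass, with a median log2 fold change of -0.22. For comparison, 39.2% of all genes tested passed. ALDH1A3, which like ALDH1A1 makes retinoic acid from retinal, rose to 79.3 ± 1.79 CPM in si-SNHG17, against 29.96 ± 0.657 CPM in si-NC (SD, n = 3 each), by 1.40 on the log2 scale (adjusted p = 5.93e-08). ALDH1A1 and ALDH1A3, at 67.3% coding identity, thus moved in opposite directions. The falls included ALDH4A1, of proline breakdown (14.6 CPM in si-SNHG17 and 29.3 CPM in si-NC, log2 fold change -1.01), ALDH5A1, succinic semialdehyde dehydrogenase (8.95 CPM in si-SNHG17 and 16.0 CPM in si-NC, -0.83), and ALDH7A1, of lysine breakdown (49.0 CPM in si-SNHG17 and 86.6 CPM in si-NC, -0.82). Their adjusted p-values were 1.81e-05 for ALDH4A1, 0.000800 for ALDH5A1 and 5.85e-06 for ALDH7A1. ALDH6A1, of valine breakdown, fell by 0.49 on the log2 scale (adjusted p = 0.0196), a call lost without si-NC replicate 2 (-0.37, adjusted p = 0.108), si-SNHG17 replicate 1 (-0.39, adjusted p = 0.0901) or si-SNHG17 replicate 2 (-0.45, adjusted p = 0.0627). ALDH9A1, which acts on aminoaldehydes, fell by 0.27 (adjusted p = 0.0375), a call that 10 of 13 alternatives lost, among them the omission of any 1 library. ALDH3B1 had 568 CPM in si-SNHG17 and 653 CPM in si-NC and did not pass (log2 fold change -0.20, adjusted p = 0.121), except without si-SNHG17 replicate 2 (-0.29, adjusted p = 0.0431). ALDH1B1, ALDH1L2, ALDH16A1 and ALDH18A1 did not pass, with log2 fold changes between -0.22 and 0.06.

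Among 15 tested carbonyl, quinone and enone reductases outside these families, 7 fell, 3 rose and 5 did not pass (median log2 fold change -0.23). The share of all genes tested that passed was 39.2%. DHRS4, a retinal and quinone reductase with close copies beside it, fell by 1.04 (14.4 CPM in si-SNHG17 and 29.8 CPM in si-NC, adjusted p = 1.68e-05). DCXR, L-xylulose reductase, fell by 0.81 (49.6 CPM in si-SNHG17 and 86.7 CPM in si-NC, adjusted p = 0.000114). TP53I3, a p53 target and quinone reductase, rose by 0.87 (87.9 CPM in si-SNHG17 and 47.9 CPM in si-NC, adjusted p = 3.42e-06), and DHRS2 rose by 1.33 (23.4 CPM in si-SNHG17 and 9.33 CPM in si-NC, adjusted p = 2.14e-05). NQO1, the most abundant of the list, fell by 0.23 (2395 CPM in si-SNHG17 and 2802 CPM in si-NC, adjusted p = 0.0154). The 5 that did not pass had log2 fold changes of -0.55 (DHRS11, low at 2.06 CPM in si-SNHG17), -0.12 (ZADH2), -0.06 (CBR1), -0.05 (PTGR1) and 0.04 (CBR3).

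Retinal, the substrate of the ALDH1A enzymes, is made from retinol, and their product, retinoic acid, acts through nuclear receptors. Of 10 tested alcohol and retinol dehydrogenases, a list that also holds enzymes of other substrates such as SORD and ADH5, 3 rose, 2 fell and 5 did not pass, beside the 39.2% of all genes tested that passed (median log2 fold change 0.02). DHRS9 rose by 1.69 (15.4 CPM in si-SNHG17 and 4.76 CPM in si-NC, adjusted p = 6.55e-06) and SDR16C5 by 1.33 (7.51 CPM in si-SNHG17 and 2.997 CPM in si-NC, adjusted p = 0.000239), while RDH10 fell by 0.57 (19.98 CPM in si-SNHG17 and 29.6 CPM in si-NC, adjusted p = 0.000989). RDH11 fell by 0.24 (adjusted p = 0.0204), a call lost in 7 of 13 alternatives, with adjusted p from 0.0148 to 0.0775 over all of them. Of 8 tested genes of retinoic acid signalling, 1 rose, 1 fell and 6 did not pass, beside the same 39.2% (median log2 fold change 0.07). CRABP2, which carries retinoic acid to its receptors, rose by 0.76 (16.8 CPM in si-SNHG17 and 9.86 CPM in si-NC, adjusted p = 0.000736). RARG, a retinoic acid receptor, fell by 0.53 (51.6 CPM in si-SNHG17 and 74.8 CPM in si-NC, adjusted p = 0.000550). CYP26B1, which degrades retinoic acid and is itself induced by it, had a log2 fold change of 0.21 (adjusted p = 0.143).

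Transcripts of NRF2 and its partners went mostly the other way from AKR1B10 and ALDH3A1, the 2 that fell most of the NRF2 targets named above. The AKR1C genes, also named there, were mixed: AKR1C3 fell by 0.57, while AKR1C1 (0.12) and AKR1C2 (-0.12) did not pass. Of 11 listed genes, 10 were tested, of which 6 rose, 2 fell and 2 did not pass, with a median log2 fold change of 0.33. Over all genes tested, 39.2% passed. NFE2L2, the gene of NRF2, averaged 188 CPM in si-SNHG17 and 119.7 CPM in si-NC and rose by 0.65 on the log2 scale (adjusted p = 1.84e-05). KEAP1 had 80.9 CPM in si-SNHG17 and 85.3 CPM in si-NC and did not pass (log2 fold change -0.08, adjusted p = 0.527). BACH1, a repressor that competes with NRF2 for the same sites, rose by 1.42 (125 CPM in si-SNHG17 and 46.6 CPM in si-NC, adjusted p = 2.76e-08). SQSTM1, the autophagy adaptor p62, which binds KEAP1, rose by 1.33 (3678 CPM in si-SNHG17 and 1462 CPM in si-NC, adjusted p = 6.29e-08). The small MAF proteins pair with both NRF2 and BACH1: MAFF rose by 0.47 (adjusted p = 0.00928) and MAFG by 0.27 (adjusted p = 0.0133). NFE2L3 rose by 0.39 (adjusted p = 0.00470), NFE2L1 fell by 0.25 (adjusted p = 0.0100), RBX1 fell by 0.40 (adjusted p = 0.0268) and CUL3 did not pass (log2 fold change -0.05, adjusted p = 0.695). The calls of MAFF, MAFG and RBX1 were each lost on leaving out 1 library, for 2 of the 6 libraries with MAFF and 3 with MAFG and RBX1, at log2 fold changes of 0.38 to 0.39 for MAFF, 0.23 to 0.26 for MAFG and -0.39 to -0.29 for RBX1. The adjusted p reached 0.0542 for MAFF, 0.0615 for MAFG and 0.132 for RBX1. These are transcript levels, and NRF2 and BACH1 proteins were not measured.

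**Figure D4:**
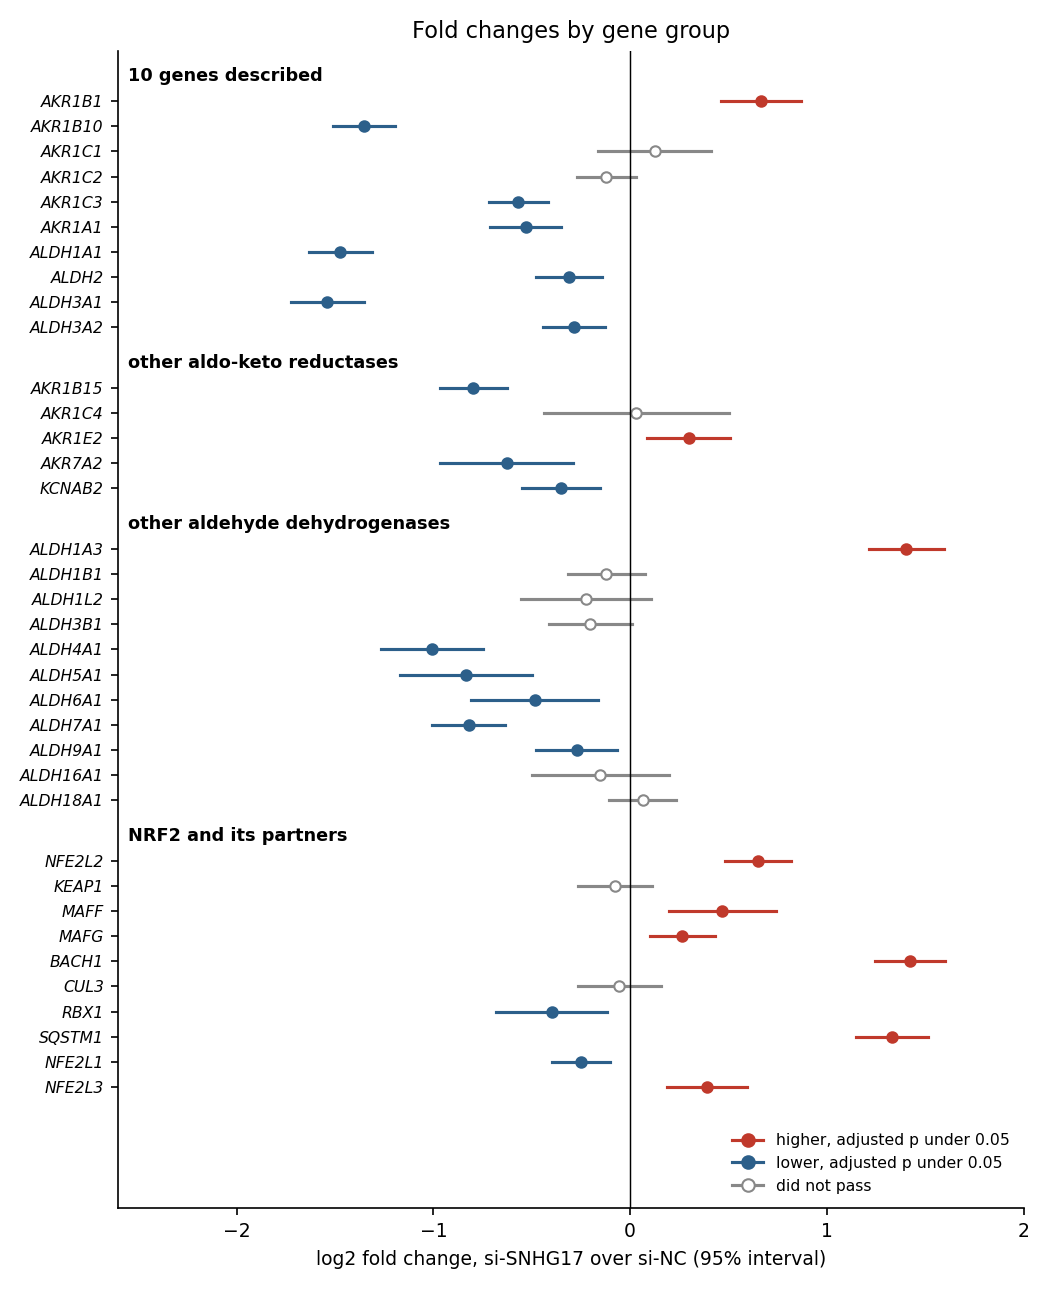
Log2 fold change of si-SNHG17 over si-NC with its 95% interval (horizontal) for the 10 genes, other aldo-keto reductases, other aldehyde dehydrogenases, and NRF2 and its partners, with red for higher, blue for lower and open grey for adjusted p of 0.05 or more. Within the 10 genes AKR1B1 (0.66) stands opposite AKR1B10 (-1.35), and among the other dehydrogenases ALDH1A3 (1.40) stands opposite ALDH1A1 (-1.47).

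Promoter windows were searched for the antioxidant response element core to which NRF2 and BACH1 bind, written TGACNNNGC, on both strands. RefSeq windows from 250 bases before to 50 bases after the start (GRCh38.p14) were present for 7 of the 10 genes, in 10 windows, and 0 of them held the motif, against 13.3% of 35116 windows of all genes. AKR1B10, ALDH3A1 and ALDH2 had no entry. The 10 windows are not all separate, since those of AKR1C1 and AKR1C2 were 98.6% identical and those of AKR1B1 overlapped. So few windows cannot show whether the motif is rarer in these genes than in others. A missing match says only that these letters are not in this window.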

How the data were processed

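RNA of 6 libraries, 3 of si-SNHG17 and 3 of si-NC, was measured after Trizol extraction with the Ion Total RNA-Seq Kit on an Ion Proton sequencer, per the labels' protocols. The values deposited by the authors are raw counts, whole numbers of reads for each gene. GRCh38 is the build per the submitters' processing notes, and the aligner, counter, annotation, use of strand and treatment of shared reads are not given in these sources. Libraries were grouped by their titles. No label says that the libraries of a group are separate cultures; p-values then measure only how far these libraries scatter, and that scatter may be technical.

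Counts of genes kept by filterByExpr went into edgeR 4.0.16 under R 4.3.3 (TMM scaling, glmQLFit and glmQLFTest, group as the only term, Benjamini-Hochberg adjustment over 15614 genes, threshold 0.05). Log2 fold changes are given as si-SNHG17 over si-NC, and a standard error is the fold change over the square root of its quasi-F value. A count of 0 allows up to 3 counts, 0.240 to 0.347 CPM per library, for counting error only. The fit was also run on simulated counts with known changes planted in some genes. That run concerns the code and does not bear on the p-values given here. Ratios and SNHG17 were also compared by exact two-sided permutation tests in scipy 1.17.1. Coding sequences were aligned with Biopython 1.88.

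The genes described and the gene lists were chosen with earlier results of these data known. Named by rule were the 10 genes, SNHG17, every tested gene of the lists of other aldo-keto reductases, other aldehyde dehydrogenases and NRF2 and its partners, up to 4 genes with the smallest p of each remaining list, and the 5 genes of at least 20 CPM nearest in pattern to the member of each family with the largest fold change. NQO1, DHRS11, ZADH2, CBR1, PTGR1 and CBR3 were named outside this rule, after their values were seen. Alternatives were other scalings, DESeq2 1.42.0, limma-voom (limma 3.58.1), other filters, a 2-fold requirement, a replicate block, summed rows of near copies and leaving out each library.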

Additional observations from a re-analysis of the deposited data

How the results depend on the processing

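Of the 10 genes, 8 passed the threshold with DESeq2, limma-voom, other scalings, other filters and the replicate block, and 8 to 9 when each library was left out in turn, of which 1 to 2 were higher and 7 lower. The ninth was AKR1C1 without si-NC replicate 3. Over all genes, 6113 passed, against 4909 to 6600 without each library. A 2-fold requirement left 1465 genes, 697 higher and 768 lower, with 3 of the 10 genes, 0 higher and 3 lower, and 8 list genes, against 35. Leaving out each library gave 26 to 34 list genes.

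The labels do not say whether library numbers pair the libraries, and the main fit did not pair them. Deviations of libraries with the same number correlated at 0.06, -0.11 and -0.09. The largest correlation between the groups was 0.21, for si-SNHG17 replicate 2 and si-NC replicate 3. With 3 libraries a group, such correlations cannot decide whether the libraries were paired. With a replicate block 5580 genes passed, 5516 of them shared, and 8 of the 10 genes. AKR1C4, which did not pass, turned to -0.0038 with limma-voom, to -0.016 with the replicate block and ranged from -0.32 to 0.20 without each library. AKR1C1 taken as the AKR1C sum was -0.19. That sum was -0.19 and passed with limma-voom, and ranged from -0.23 to -0.14 without each library. The log2 difference of the AKR1C1 to AKR1C2 ratio ranged from 0.15 to 0.46 without each library. The cause of these changes was not tested.

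Depth does not limit the 10 genes, whose lowest count was 704, but 3 libraries a group leave 5 of the 6 ratios at the smallest p the exact test allows, and how shared reads were counted limits the AKR1C values.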
